A study of Saccharomyces cerevisiae with 4 samples.

Results

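The 7 genes described here serve cytochrome c, the small heme protein that carries electrons between respiratory complexes III and IV in the space between the mitochondrial membranes. They are SUE1, CYC2, CYC3, CYT2, CYB2, DLD1 and CCP1, and all 7 were read on the array, out of 5449 Saccharomyces cerevisiae genes with a probe set. They were chosen for their roles and with the strain difference on these arrays already known, above all that of SUE1. Their strain differences are therefore a description, with no test, and only genes outside the 7 are tested. The lists of those genes were also drawn up with results of these arrays known.

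The arrays compare 2 yeast strains grown with shaking in YPD, a rich glucose medium. X2180 is a laboratory strain of the S288C line, from which the reference genome was read, and NBRC1950 comes from a Japanese culture collection. Each strain was read on 2 Affymetrix Yeast Genome 2.0 arrays from independent experiments, with poly(A) RNA as the starting material and 1 signal per probe set. No vanillin was named in any label, although the series title concerns tolerance to it, and ploidy, mating type, growth phase and cell density were not given either.

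Cytochrome c reaches the mitochondrion as a protein without heme. A heme lyase then joins heme to 2 cysteines of the protein through covalent bonds, which also holds the protein in the intermembrane space. Finished cytochrome c takes electrons from cytochrome c1 of complex III and, in yeast, also from lactate dehydrogenases that bypass that complex, and gives them to cytochrome oxidase or to a peroxidase. Yeast represses many of these genes on glucose and raises them through heme-dependent and carbon-dependent activators.

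Signals are on a linear scale, set so that the median S. cerevisiae probe set stood at 973.6 on every array. Before that scaling the medians ranged from 894 to 1171. The background limit of an array is the 90th percentile of 5217 probe sets without an S. cerevisiae gene name, and it lay between 14.88 and 18.2. Of the 7 genes, 6 were above the limit on all 4 arrays, by at least 3.37 times, and SUE1 was above it on the NBRC1950 arrays only. Each gene had 1 probe set, and 0 of the 7 carried the mark of a probe set that reads several similar sequences. Signals of different genes come from different probes, so no gene's level is set against another's. In RNA from a whole culture, fewer cells that express a gene and less RNA per cell cannot be told apart.

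**Figure D1:**
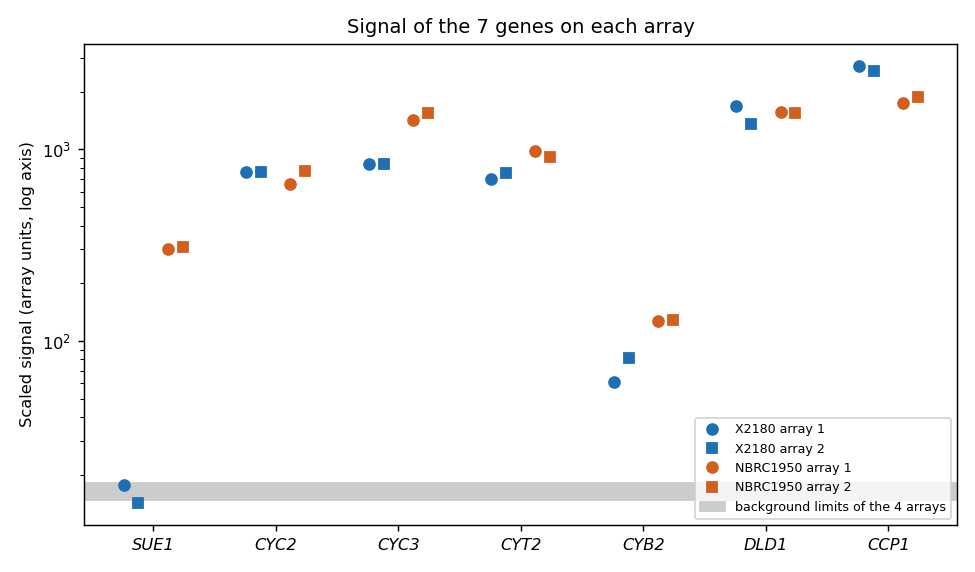
Scaled signal (array units, log axis) of the 7 genes on each of the 4 arrays, with X2180 in blue, NBRC1950 in orange, circles for array 1, squares for array 2 and a grey band from the lowest to the highest background limit. SUE1 lies at 17.7 and 14.3 for X2180, below the limits of 18.2 and 15.92 on those arrays, and at 301 and 308 for NBRC1950.

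SUE1 had the widest gap between strains among the 7. The protein is mitochondrial and is needed for the breakdown of unstable forms of cytochrome c. The gene, YPR151C on chromosome XVI, gave signals of 17.7 and 14.3 in X2180 cells and of 301 and 308 in NBRC1950 cells. Both X2180 signals lay under the background limits of their arrays, 18.2 and 15.92, and both NBRC1950 signals lay far above theirs, 14.88 and 16.58. Of the background probe sets, 10.6% and 12.2% were brighter than SUE1 on the X2180 arrays, against 2.80% and 2.82% on the NBRC1950 arrays. X2180 therefore has only an upper bound, and SUE1 was at least 17.9-fold higher in NBRC1950. The measured means were 16.0 ± 2.4 for X2180 and 305 ± 4.56 for NBRC1950 (SD, n = 2 per strain), or 4.26 apart on the log2 scale. Across the 4 pairs of an NBRC1950 with an X2180 array the log2 difference ran from 4.09 to 4.43, while the arrays within a strain differed by -0.31 in X2180 and 0.03 in NBRC1950.

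Of 5316 tested genes, 12, SUE1 included, had signals under the limit on both X2180 arrays and over it on both NBRC1950 arrays. SUE1 passed the filter on low signals through NBRC1950 alone. The arrays cannot tell a transcript that is missing from X2180 from one that is present below the limit. The dim signal was that of X2180, the strain of the reference line.

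The genes beside SUE1 on chromosome XVI did not share its gap. NCE102, the nearest tested gene on the side of lower coordinates, encodes an eisosome protein of the plasma membrane and differed by 0.22 on the log2 scale. URN1, the nearest on the other side, had signals of 384 and 358 in X2180 and 347 and 363 in NBRC1950, so that the strains overlapped. Of the 6 nearest tested genes, 3 on each side, 0 were called higher in NBRC1950 and 2 were called lower, at an adjusted p under 0.05 in limma. Over all tested genes 47.2% were called, 20.4% as higher and 26.8% as lower. Those called lower were YPR147C, which differed by -0.61, and PIN3, which differed by -1.73 (limma adjusted p = 0.000385). PIN3, a regulator of actin assembly found in a screen for prion inducers, had signals of 1547 and 1456 in X2180 and 353 and 576 in NBRC1950. MAY24, which lies between URN1 and PIN3, had no tested probe set.

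The 5 tested genes nearest to SUE1 in their pattern over the 4 arrays lay on other chromosomes. Nearness is the Euclidean distance between log2 signals after each gene is centred on its own mean, over 4 arrays of 2 strains, so it mainly ranks genes by the size of the strain difference. ECM34, on chromosome VIII and of unknown function, had a distance of 0.13. Its signals were 19.1 and 15.1 in X2180 and 289.5 and 315.5 in NBRC1950. The X2180 signals of SUE1 lay under the background limits and those of ECM34 at them, so these distances rest in part on background signal and their order is uncertain. HMX1, the heme oxygenase, stood at 0.28, with signals of 51.9 and 50.4 in X2180 and 818 and 905 in NBRC1950. YAR064W of chromosome I, of unknown function, stood at 0.38, FRE4, a reductase for siderophore iron, at 0.43, and FLO9, a flocculin, at 0.58. The X2180 signals of YAR064W, 16.1 and 9.30, also lay under the background limits of those arrays. The probe sets of YAR064W and FLO9 are shared with similar sequences.

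CYC3 encodes the lyase that attaches heme to cytochrome c, and its signal was higher in NBRC1950. It read 834 and 835 in X2180 and 1425 and 1543 in NBRC1950. The X2180 values were almost equal, and the lower NBRC1950 value lay well above both. The strain means of 834.3 ± 0.959 and 1484 ± 83.3 (SD, n = 2 in each strain) were 0.83 apart on the log2 scale, a ratio of 1.78. CYC3, locus YAL039C, lies on chromosome I, where the median of 84 tested genes was 0.38 and where 48 were called higher and 15 lower. The median over all tested genes was -0.05, with 20.4% called higher and 26.8% lower. CLN3, the G1 cyclin next to CYC3, was higher by 1.61 (limma adjusted p = 3.9e-06), and CDC24, the exchange factor for Cdc42 beyond it, by 0.86. ERV46, beyond CDC24, was called lower, at -0.25 (limma adjusted p = 0.0175). CDC19, the pyruvate kinase on the other side, differed by -0.16 and was not called, nor were YAL037W (-0.01) and RBG1 (0.14) beyond it. The part that the higher median of chromosome I has in the CYC3 value was not tested.

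CYT2 encodes the lyase that attaches heme to cytochrome c1. Its signals were 701 and 755 in X2180 and 976 and 913 in NBRC1950. The strains did not overlap, and NBRC1950 was higher by 0.38 on the log2 scale, or 1.30 times. The 4 pairs of arrays ran from 0.27 to 0.48. CYT2 (YKL087C) lies on chromosome XI, where the median tested gene differed by -0.07. Its neighbours SRX1, the sulfiredoxin that repairs peroxiredoxins, and CAB3, a gene of coenzyme A synthesis, differed by -0.90 and 0.04.

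CYC2 encodes a flavoprotein of the inner membrane that assists heme attachment to cytochrome c. Its signals were 759.3 and 759.5 in X2180 and 658 and 769 in NBRC1950. The X2180 pair lay between the NBRC1950 values, so the strains overlapped, with a log2 difference of -0.09 that was smaller than the gap of 0.22 between the NBRC1950 arrays. Thus of the 3 genes of heme attachment, the lyase genes CYC3 and CYT2 read higher in NBRC1950 and the flavoprotein gene CYC2 did not differ beyond its spread. CYC2 is YOR037W of chromosome XV. PEP12 and HIR2, its nearest tested neighbours, were called higher by 0.53 and 0.36.

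**Figure D2:**
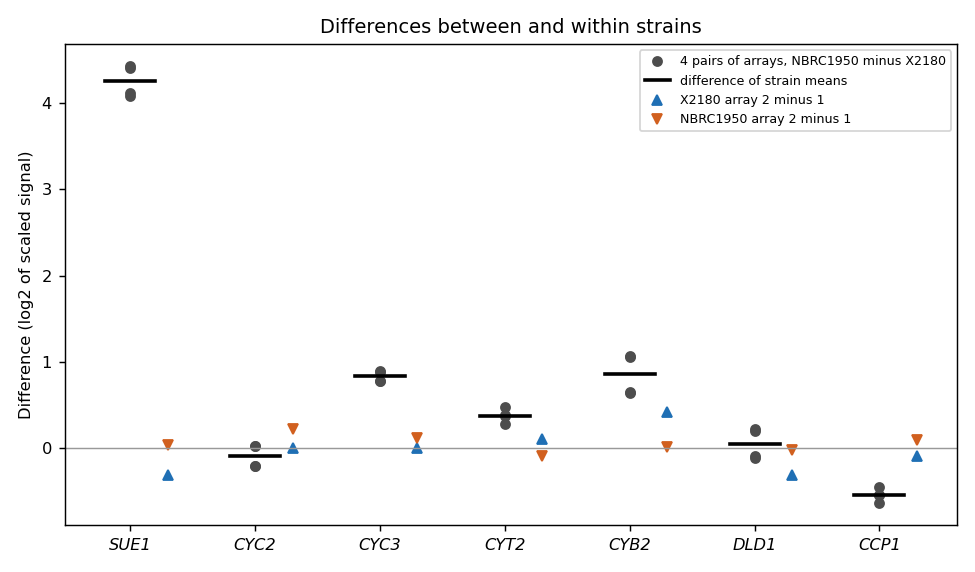
Log2 differences of scaled signal for the 7 genes, with grey dots for the 4 pairs of an NBRC1950 and an X2180 array, a bar for the difference of the strain means, and triangles for array 2 minus array 1 within each strain. The dots of SUE1, CYC3, CYT2 and CYB2 lie above 0 and those of CCP1 below it, while those of CYC2 and DLD1 lie on either side of 0.

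CYB2 encodes flavocytochrome b2, which oxidises L-lactate in the intermembrane space and passes the electrons to cytochrome c. The gene is repressed on glucose and was dim in both strains. Its signals were 61.4 and 81.7 in X2180 and 127 and 128 in NBRC1950. The strains did not overlap, but the gap within X2180 was 0.41 on the log2 scale, against 0.02 within NBRC1950. The strain means of 71.5 ± 14.3 and 127.8 ± 0.958 (SD, n = 2 in each strain) were 0.85 apart on the log2 scale, a ratio of 1.81. The difference was 0.65 without X2180 replicate 1 and 1.06 without X2180 replicate 2. CYB2 is YML054C of chromosome XIII, and SPC2, a signal peptidase subunit beside it, differed by -0.08.

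DLD1 encodes the D-lactate dehydrogenase of the inner membrane, which also gives its electrons to cytochrome c. Its signals were 1681 and 1348 in X2180 and 1572 and 1549 in NBRC1950. The NBRC1950 values fell between those of X2180, and the log2 difference of 0.05 was smaller than the gap of 0.32 between the X2180 arrays. Leaving out an array moved it between -0.11 and 0.21, on either side of 0. The ratio of CYB2 to DLD1 within an array was higher in NBRC1950 by 0.80 on the log2 scale, with X2180 arrays 0.73 apart. Scaling each array by a constant leaves this ratio unchanged. Quantile normalization changes it, with CYB2 at 1.23 and DLD1 at 0.09. DLD1 is YDL174C of chromosome IV, and DLD2 lies a few genes away from it.

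CCP1 encodes cytochrome c peroxidase, which uses electrons from cytochrome c to reduce hydrogen peroxide, and it was the member with a lower signal in NBRC1950 outside the replicate spread. Its signals were 2723 and 2561 in X2180 and 1749 and 1866 in NBRC1950. The strains did not overlap, and the means of 2642 ± 115 and 1807 ± 82.8 (SD, n = 2 in each strain) differed by -0.55 on the log2 scale, or 1.46 times in favour of X2180. The 4 pairs of arrays ran from -0.64 to -0.46. CCP1 (YKR066C) lies on chromosome XI with CYT2. Its nearest tested neighbours PAM17, a subunit of the import motor, and GPT2, an acyltransferase of lipid synthesis, differed by 0.16 and -0.20 and were not called.

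The arrays of the strains did not overlap for 5 of the 7, 4 with NBRC1950 higher and 1 with it lower, against 75.7% of all genes, 33.3% higher and 42.3% lower. Because the 7 were chosen with this contrast known, nothing is read from that count. The median difference of the 7 was 0.38 against -0.05 over all tested genes, and the median size was 0.55 against 0.25. CYB2, CYC3 and CCP1 were exceeded in size by 9.67%, 10.1% and 20.8% of tested genes, CYT2 by 33.7%, and CYC2 and DLD1 by 78.7% and 88.7%.

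The sign of the CYC2 difference depended on how arrays were scaled. The other members kept their sign, but the sizes of their differences moved. With arrays scaled to all probe sets, background ones included, the median gene moved to 0.50, and with no further scaling to 0.16. CYC2 stood at 0.45 and 0.11 in these settings and DLD1 at 0.60 and 0.26. CCP1 was at -0.0019 with all probe sets and at -0.34 with none. Scaling to all probe sets or not at all shifts every gene by the same amount, so a gene's distance from the median gene can differ from the main value under quantile normalization alone. With the quantile value included, that distance lay for CCP1 between -0.52 and -0.50, for CYT2 between 0.35 and 0.42, for CYC3 between 0.82 and 0.88, for CYB2 between 0.90 and 1.21 and for SUE1 between 4.31 and 4.63.

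**Figure D3:**
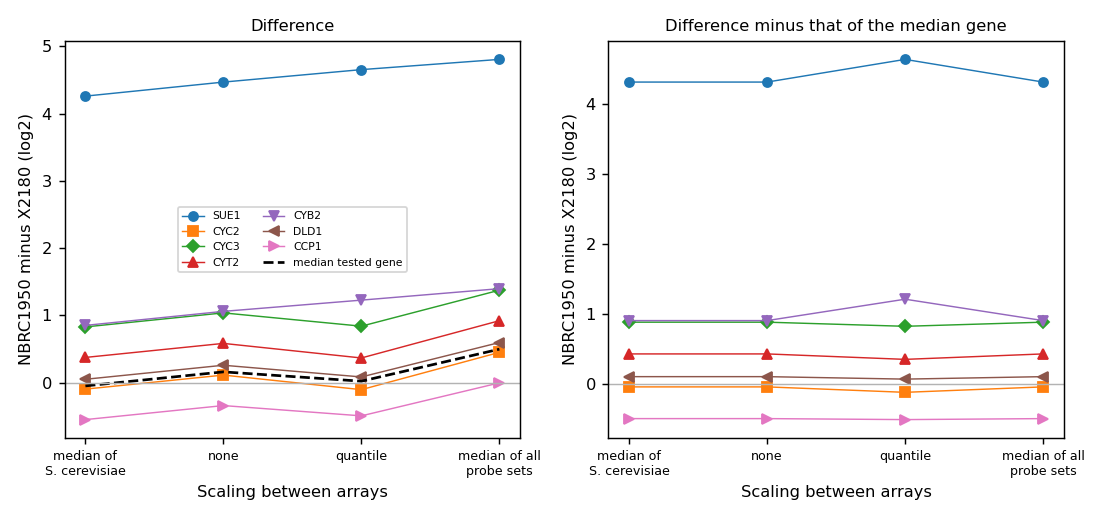
Log2 difference of the 7 genes under 4 ways of scaling arrays (left, with the median tested gene as a dashed line) and the same after the median gene is subtracted (right). CCP1 reaches -0.0019 on the left when all probe sets set the scale, and on the right all points but those of quantile normalization are equal by construction, with CCP1 at -0.50 and, under quantile normalization, -0.52.

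The cytochromes that receive the heme were higher in NBRC1950, all 3 of them, and those genes are outside the 7. CYC1 encodes the main cytochrome c, CYC7 a second form that is favoured at low oxygen, and CYT1 cytochrome c1. CYC7 rose from 157 ± 14.5 to 261 ± 16.7 (SD, n = 2 in each strain), by 0.73 ± 0.13 on the log2 scale (SE; limma adjusted p = 0.00298). CYC1 was higher by 1.30 (limma adjusted p = 8.6e-06) and CYT1 by 1.92 (6.35e-05). CYC1 and CYT1 were listed with their results on these arrays known, so their p-values are not independent support. In this fit 20.4% of all tested genes were called higher. Against the lyase that serves it, the ratio of CYT1 to CYT2 was higher in NBRC1950 by 1.55 on the log2 scale, with no overlap between strains. The ratio of CYC1 to CYC3 was higher by 0.47, again without overlap, whereas that of CYC7 to CYC3 differed by -0.10 and overlapped. The ratio of CYC1 to CCP1 was higher by 1.85. These ratios were picked after the signals were seen and have no test.

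With the main scaling, the lactate permease gene JEN1 and the DLD1 relatives DLD2 and DLD3 did not all go the way of CYB2. DLD2, a D-2-hydroxyglutarate dehydrogenase of mitochondria related to DLD1, rose by 0.47 (limma adjusted p = 0.000864). DLD3, its cytosolic relative, fell by 0.36 (limma adjusted p = 0.00912), but was at 0.18 with arrays scaled to all probe sets and at -0.16 without a call when not scaled. JEN1, the lactate permease, read 63.9 and 42.4 in X2180 and 72.6 and 159 in NBRC1950, and did not pass (difference 1.05, limma adjusted p = 0.0521). Without NBRC1950 replicate 1 it was called, at 1.61, and it was also called under the other 3 scalings. Without NBRC1950 replicate 2 it was at 0.48 (limma adjusted p = 0.264) and without X2180 replicate 2 at 0.75 (0.318).

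Genes for proteases of the inner membrane and intermembrane space, some of which cut members or their partners to size, went both ways. Of 9 listed genes, counting SOM1, which is not itself a protease, 1 rose, 3 fell and 5 did not pass. In this fit 20.4% and 26.8% of all genes were called higher and lower. IMP1, the peptidase that cleaves the CYB2 product, fell from 1871 ± 48.3 to 690.5 ± 75.9 (SD, n = 2 in each strain), by 1.44 on the log2 scale (limma adjusted p = 2.18e-05). IMP2, its partner, which cleaves the CYT1 product, fell by 0.73, a call that was lost when scaled to all probe sets. SOM1, which IMP1 needs, was at 0.19 and did not pass. AFG3 and YTA12 encode the subunits of the protease that, with the rhomboid protease PCP1, matures the CCP1 product. AFG3 rose from 772 ± 11.1 to 1414 ± 10.7, by 0.87 (limma adjusted p = 6.97e-05), while YTA12 was at -0.07 and PCP1 at 0.13 and neither passed. OMA1, a stress-activated protease, differed by -0.54, and was called neither without scaling nor when scaled to all probe sets, where it was at 0.0081. YME1 (-0.04) and ATP23 (0.18) did not pass, although ATP23 passed without X2180 replicate 2, at 0.34.

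Both listed genes that supply heme for the lyases fell with the main scaling, where 26.8% of all tested genes were called lower. HEM14 turned sign when all probe sets set the scale, and other genes of heme synthesis were not listed. HEM15, the ferrochelatase that inserts iron to make heme, had signals of 2588 and 2398 in X2180 and 1606 and 1750 in NBRC1950, a difference of -0.57 (limma adjusted p = 0.000797). HEM14, which makes the porphyrin that HEM15 uses, differed by -0.39 (limma adjusted p = 0.0435). When scaled to all probe sets HEM15 was at -0.03 and HEM14 at 0.16, and with no further scaling both calls were lost. The call of HEM14 was also lost without X2180 replicate 2, at -0.19, without NBRC1950 replicate 1, at -0.34, with no filter on low signals and with no intensity trend. MIA40, which folds proteins of the intermembrane space, rose by 0.45 (limma adjusted p = 0.0461), a call lost without X2180 replicate 1, at 0.19, without NBRC1950 replicate 2, at 0.38, with no filter and with no trend. ERV1, which reoxidises it and can pass electrons to cytochrome c, was at -0.07 and did not pass.

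Of 9 regulators of heme, carbon source and oxidant responses, 1 rose, 1 fell and 7 did not pass. Of all tested genes 20.4% were called higher and 26.8% lower. HAP4, the limiting activator subunit of the HAP complex that binds CCAAT boxes, rose from 730 ± 48.9 to 1298 ± 48.5 (SD, n = 2 in each strain), by 0.83 (limma adjusted p = 0.000192). The DNA-binding subunits HAP2 (0.17), HAP3 (0.13) and HAP5 (0.25) did not pass. HAP1, a heme-dependent activator of CYC1, CYC7, CYT1 and CYB2, fell by 1.06 (limma adjusted p = 6.09e-05). The HAP1 result was known when the gene was listed. As background, strains of the S288C line carry a Ty1 insertion in HAP1 that weakens the protein, and no sequence of either strain was used here. CAT8 (0.0068) and ADR1 (0.36), activators used after glucose runs out, and SKN7 (-0.03) and YAP1 (-0.18), which answer to oxidants, did not pass. Among 4 genes that remove peroxide or superoxide, SOD2 of the mitochondrial matrix rose by 0.57 (limma adjusted p = 0.00178), opposite in sign to CCP1, and the peroxidase and catalase genes PRX1 (-0.11), CTA1 (0.32) and CTT1 (0.06) did not pass.

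**Figure D4:**
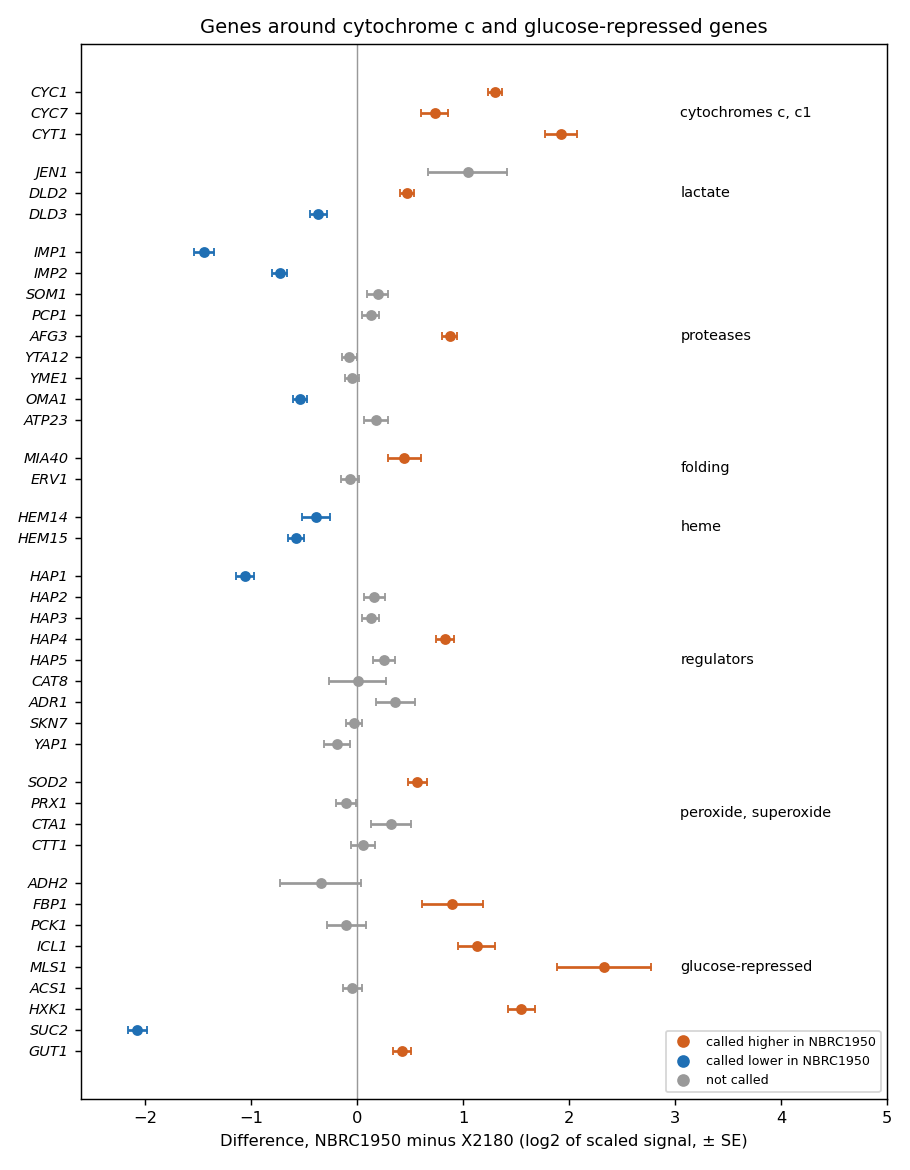
Log2 difference, NBRC1950 minus X2180, with its SE from limma, for 32 genes around cytochrome c and 9 glucose-repressed genes, grouped by list. Orange points were called higher in NBRC1950, blue points lower and grey points were not called. All 3 cytochrome genes are orange and both heme genes blue, while the other groups hold called and uncalled genes.

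Over all 32 genes in these 7 lists, 8 rose, 7 fell and 17 did not pass, with a median of 0.13. Of all tested genes 20.4% were called higher and 26.8% lower, with a median of -0.05. When scaled to all probe sets 24 rose and 2 fell, in a setting where 3968 of all 5316 tested genes rose and 321 fell. Nothing is read from these counts. The lists were drawn up with results of these arrays known, CYC1, CYT1 and HAP1 among them.

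Culture state was read from 9 glucose-repressed genes, since CYB2 and DLD1 are repressed on glucose. Of the 9, 5 were higher in NBRC1950, 1 was lower and 3 did not pass. The shares over all tested genes were 20.4% higher and 26.8% lower. MLS1, the malate synthase, had signals of 21.1 and 29.3 in X2180 and 75.6 and 207 in NBRC1950 (difference 2.33, limma adjusted p = 0.0041), a call lost without X2180 replicate 1, at 2.09, or replicate 2, at 2.57. HXK1, a hexokinase, was higher by 1.55, ICL1, the isocitrate lyase, by 1.13, FBP1, a fructose bisphosphatase, by 0.90 and GUT1, the glycerol kinase, by 0.43. The call of FBP1 (limma adjusted p = 0.0363) was lost without X2180 replicate 2, at 0.49, or NBRC1950 replicate 2, at 0.79, with no filter and with no trend. SUC2, the invertase, was lower in NBRC1950, with a difference of -2.07. ADH2 (-0.34), PCK1 (-0.10) and ACS1 (-0.04) did not pass, and ADH2 was called lower without NBRC1950 replicate 1, at -0.90. The summed signal of the 9 was 2908 and 2767 in X2180 and 2579 and 2753 in NBRC1950, and none was at 0. SUC2 alone held 1244 and 1224 of the X2180 sums, against 277 and 312 of the NBRC1950 sums. The sums therefore do not show the 5 markers called higher, and they add signals of different probes. The part of culture state in the CYB2 difference was not tested.

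Of 12 markers of mating type and haploid cells, 10 were bright enough to be tested, of which 8 were lower in NBRC1950 and 0 higher, against 26.8% and 20.4% of all tested genes. MFA1 (0.16) and MF(ALPHA)2 (0.24), both pheromone genes, did not pass, and MF(ALPHA)1 and FUS3 were not tested. Their summed signal was 1166 and 1346 in X2180 and 719 and 706 in NBRC1950. Among those called was MFA2, also a pheromone gene, with a difference of -0.83. BAR1, the pheromone protease, was called at 57.8 and 67.3 against 14.8 and 18.7. STE3, a pheromone receptor, was called at 32.7 and 32.8 against 8.55 and 15.7. Both NBRC1950 signals of STE3, and that of BAR1 on array 1, lay under the background limits of 14.88 and 16.58. The sizes of these 2 differences therefore rest in part on background signal. STE2 (-0.56), STE4 (-0.72), STE6 (-0.74), GPA1 (-0.78) and RME1 (-1.87) were also called lower, and all their signals lay above the limits. Whether these markers have a part in the differences of the 7 genes was not tested.

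Of the 42 tested neighbours of the 7 genes on their chromosomes, 9 were called higher and 9 lower, beside 20.4% and 26.8% of all tested genes, with differences from -1.73 for PIN3 beside SUE1 to 1.61 for CLN3 beside CYC3. Around CYT2, 3 neighbours were called lower and 0 higher, opposite in sign to CYT2 itself. Around CYB2, SUR7, an eisosome protein gene, was called higher by 0.60 and IMD4, of guanine nucleotide synthesis, was called lower with a difference of -0.22.

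**Figure D5:**
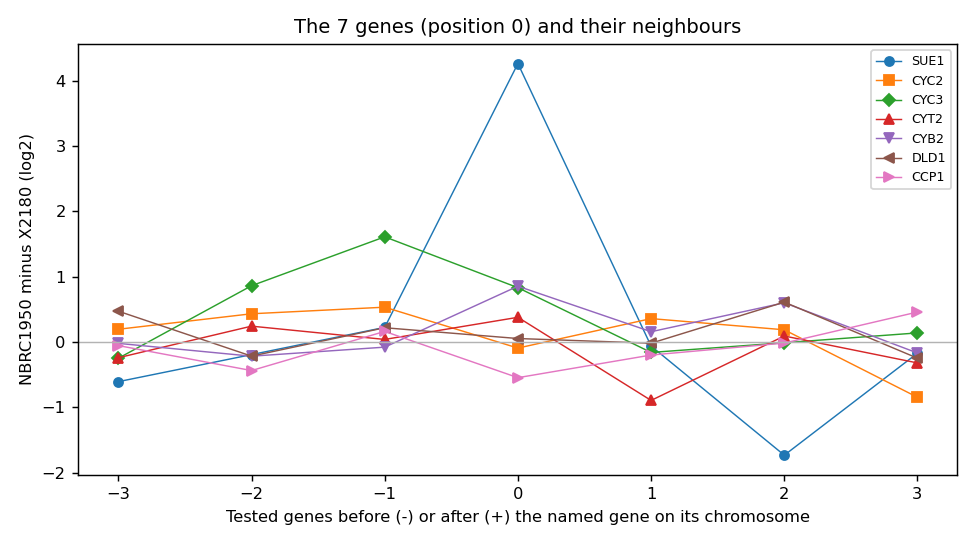
Log2 difference, NBRC1950 minus X2180, of the 7 genes (position 0) and of the 3 tested genes on either side of each along its chromosome, joined by a line per gene. SUE1 stands at 4.26 with neighbours at 0.22 and -0.06, whereas CYC3 at 0.83 lies next to CLN3 at 1.61.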

How the data were processed

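The authors deposited a linear intensity for each probe set on each array. GCOS is named in the submitters' processing notes, without its scaling. Detection calls were not used. Probe sets were named through the platform annotation and the R64 gene table. That table also gave the chromosome and, through its coordinates, the order of genes. Signals were scaled to the median S. cerevisiae probe set, floored at 4.567 (the median background signal) and converted to log2. Probe sets with a mean log2 signal above that of 16.35, the geometric mean of the background limits, were tested: 5358 probe sets, 5316 genes, the brightest probe set standing for a gene. The fit used limma 3.58.1 under R 4.3.3 (lmFit, eBayes with trend, 2 residual degrees of freedom), with Benjamini-Hochberg adjustment over all tested probe sets and a threshold of 0.05. It was also run on simulated data with few changed genes and no scaling step, which cannot show whether the scaling suits these arrays.

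The members and lists were chosen with earlier results of these data known. Named are all members, all genes of the pathway, glucose and mating lists, the 5 genes nearest to SUE1 in pattern and its chromosome neighbours. Neighbours of other members, and the mating markers given with signals, were picked after their values were seen. Planned promoter and protein comparisons were not made, since no sequences were used here. Probes were not masked for sequence differences of NBRC1950, so signals may reflect mismatches. Precision is limited by having 2 arrays for each strain.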

Additional observations from a re-analysis of the deposited data

How the results depend on the processing

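The count of genes called between strains was 2509, and it was 4289 when arrays were scaled to all probe sets and 1308 with no further scaling. The methods' t-test was run on signals scaled to all probe sets, so its counts differ from 2509 in scaling as well as in test. It called 1594 genes after Benjamini-Hochberg adjustment, 1449 higher and 145 lower (3146 unadjusted). The share of called genes that were higher was 43.2% with the main scaling, 92.5% with all probe sets, 70.7% with none and 52.0% with quantile normalization. The 15 pathway calls became 26 with all probe sets. Scaled to all probe sets, the members' differences were 4.81 for SUE1, 0.45 for CYC2, 1.38 for CYC3, 0.92 for CYT2, 1.40 for CYB2, 0.60 for DLD1 and -0.0019 for CCP1. With no further scaling they were 4.47, 0.11, 1.04, 0.58, 1.06, 0.26 and -0.34 in the same order, and with quantile normalization SUE1 was at 4.65 and CYB2 at 1.23. Signs turned with scaling to all probe sets for DLD3 (0.18), YTA12 (0.47), YME1 (0.50), OMA1 (0.0081), ERV1 (0.48), HEM14 (0.16), SKN7 (0.52), YAP1 (0.36), PRX1 (0.44), ADH2 (0.20), PCK1 (0.45) and ACS1 (0.50), with the median gene at 0.50. With an array left out, the count of called genes ran from 1864 to 2113, pathway calls from 14 to 15 and glucose-repressed calls from 4 to 7. Of 41 tested genes named from the lists, 13 kept direction and call in all 13 alternatives. The replicate numbers mark no shared day in the labels, and same-numbered arrays deviated together with a correlation of 0.06 over genes. With the replicate block 2671 genes were called, of the pathway genes 16, and JEN1 passed (limma adjusted p = 0.0261). Near the background limit, as for SUE1 in X2180, signal over background limits any fold.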
